A study of Mus musculus with 12 samples.

Results

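The comparison described here takes both adeno-associated virus (AAV) vectors together against saline: do livers that received either vector differ from livers that received none? All 12 one-colour Agilent arrays of the series enter it, the 8 titled GFP or hGRB as one vector group and the 4 titled PBS as controls, and its members are the genes that both vectors moved in the same direction from saline. The test covered 26592 of 41174 probes, those with signal well above background on 4 arrays or more, and they carry 18882 gene or transcript names. No member passed the test: 0 of 26592 probes (0%) reached an adjusted p of 0.05 in either direction. The genes described below are those whose 8 vector arrays all lay on one side of all 4 PBS arrays, 49 probes in all, together with gene lists.

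Every sample was liver RNA of male C57BL/6 mice aged 3 months with a liver knockout of GR, the glucocorticoid receptor encoded by Nr3c1, so the control animals carried the knockout too. The 4 AAV-GFP samples came from animals given a vector for green fluorescent protein, the 4 AAV-hGRB samples from animals given a vector for human GR beta, an isoform of the receptor that lacks glucocorticoid binding, and the 4 PBS samples from animals given phosphate-buffered saline. There was no wild-type group and no vector without an insert, so a change shared by both vectors cannot be told apart from a change that GFP and human GR beta each cause. No source used here gives the driver of the knockout, the dose and serotype of the vectors, or the time from injection. Whether the numbered samples of a group are separate animals is not stated in the labels, and p-values then reflect only how these samples vary, which may be technical.

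AAV vectors carry a single-stranded DNA genome, enter cells by receptor-mediated uptake and pass through endosomes to the nucleus, where the genome persists mostly as an episome. In the liver, transduced hepatocytes and the resident macrophages, called Kupffer cells, can sense vector DNA through Toll-like receptors and cytosolic DNA sensors, and such sensing is known for inducing interferon-stimulated genes. Hepatocytes also make hepcidin, the peptide hormone that lowers plasma iron, under the control of BMP and SMAD signalling and of interleukin 6 through STAT3.

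The tissue matched its label: 7 of 7 hepatocyte markers and 6 of 6 Kupffer cell markers were well above background on all 12 arrays. Levels are log2 processed signal minus the array's 75th percentile, so a difference of 1 is a doubling. That percentile was 8.79 ± 0.48 (SD, n = 8) on vector arrays and 8.92 ± 0.33 (SD, n = 4) on PBS arrays, with a p of 0.701 in an exact two-sided permutation test. The share of probes well above background was 61.4% ± 3.8 (SD, n = 8) and 60.9% ± 5.7 (SD, n = 4), with an exact p of 0.881. Single arrays nevertheless stood apart. AAV-GFP replicate 3 was the dimmest array, with its percentile at 7.71. PBS replicate 1 had the lowest Kupffer cell marker mean of the 12 arrays, 1.17 against 2.28 to 2.40 on the other PBS arrays, an MHC class II mean of -1.08 against 0.22 to 0.47, and the highest adipocyte and muscle marker mean, -0.16. The part of these markers in other results was not tested, and results that moved most without these arrays are given with and without them.

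Across all tested probes the change from saline was small against the spread. The median log2 change was -0.02, the median standard error 0.27 and the 95% interval reached a median of 0.58 to either side of the estimate. The lowest adjusted p of limma's fit was 0.953. At an unadjusted p of 0.05, 865 probes (3.25%) passed, 331 higher (1.24%) and 534 lower (2.01%), and at 0.01 there were 108 (0.406%). The first count depended on the fit: over the alternatives tried it ranged from 185 under another background correction, normexp, to 3052 with array weights, and 0 probes passed after adjustment in each.

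**Figure D1:**
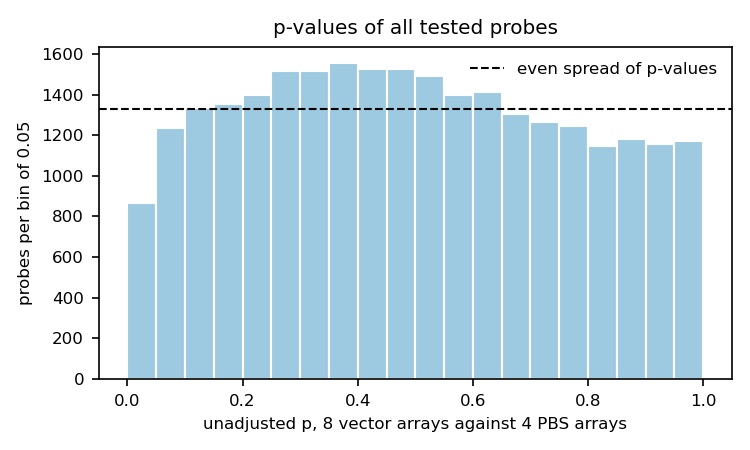
Histogram of the unadjusted p-values of the 26592 tested probes, 8 vector arrays against 4 PBS arrays, in bins of 0.05, with a dashed line at the height of an even spread. The first bin holds 865 probes and lies below the line.

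Taken apart, neither vector gave a call in this fit. AAV-GFP against PBS called 0 probes (0%; lowest adjusted p 0.999) with 448 (1.68%) at an unadjusted p of 0.05, and AAV-hGRB against PBS called 0 (0%; lowest adjusted p 0.102) with 1553 (5.84%). With array weights, AAV-hGRB against PBS called 67 probes. The difference between the vectors called 0 probes (0%; lowest adjusted p 0.31) with 892 (3.35%) at an unadjusted p of 0.05. The mean changes of both vectors had one sign for 18674 probes (70.2%), 8459 positive (31.8%) and 10215 negative (38.4%). Both comparisons share the 4 PBS arrays, so this share says nothing of a common response. Both vectors stood over 2-fold above PBS for 40 probes (0.15%) and over 2-fold below it for 89 (0.335%).

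All 8 vector arrays lay above all 4 PBS arrays for 25 probes (0.094%) and below them for 24 (0.0903%). The 12 named genes in each direction are those of lowest unadjusted p whose brightest probe separated, and all have an adjusted p of 0.953.

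Among the genes lower with both vectors, Hamp2 stood out as a liver product. It encodes a second mouse hepcidin and lies beside Hamp, which encodes the iron-regulating hormone itself. The sequences before both start sites are shown because these neighbours are close copies that gave different values on the arrays. They are the 250 bases before the start, from RefSeq on GRCm38.p6, at chr7:30924182-30924431 for Hamp2 and chr7:30944030-30944279 for Hamp, both on the minus strand. Capitals mark matches on either strand to the STAT site TTCNNNGAA and to GGCGCC, the core of the BMP response element.
Hamp2: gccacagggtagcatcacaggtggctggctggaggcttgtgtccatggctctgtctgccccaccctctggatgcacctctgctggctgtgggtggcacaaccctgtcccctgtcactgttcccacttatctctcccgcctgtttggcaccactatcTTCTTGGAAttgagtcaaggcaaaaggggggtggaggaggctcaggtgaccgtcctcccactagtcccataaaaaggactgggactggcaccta
Hamp: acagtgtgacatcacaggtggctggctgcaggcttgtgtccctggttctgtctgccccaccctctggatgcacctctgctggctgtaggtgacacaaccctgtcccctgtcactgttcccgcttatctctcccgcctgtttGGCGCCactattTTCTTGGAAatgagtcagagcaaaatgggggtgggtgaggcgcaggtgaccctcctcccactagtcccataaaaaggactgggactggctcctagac
Aligned end to end, they shared 227 identical bases with 20 mismatches and 6 gap positions, an identity of 89.7%. Both held 1 STAT match, 94 bases before the start in Hamp2 and 97 in Hamp. Hamp held 1 GGCGCC, starting 109 bases before the start, and Hamp2 held 0 in this window. Over all 32851 such windows in the table, 7.02% held a STAT match and 9.59% a GGCGCC. No overlap between matches of the 2 motifs occurred in these windows. A match describes letters only.

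The Hamp2 level was 4.49, 4.12, 4.15 and 4.67 on the PBS arrays. On AAV-GFP arrays it was 3.60, 3.46, 3.78 and 2.32, and on AAV-hGRB arrays 2.72, 2.47, 2.42 and 1.36. Every vector array lay below every PBS array, as the rule that chose Hamp2 required, and every AAV-hGRB array lay below 3 of the 4 AAV-GFP arrays. The log2 difference was -1.59 ± 0.39 (SE; 95% interval -2.43 to -0.75), a 3.01-fold lower level with an adjusted p of 0.953. It was -1.06 for AAV-GFP and -2.11 for AAV-hGRB, and the difference between the vectors was -1.05 (SE 0.36, adjusted p 0.998). Within the 3 slides that held both groups, of which the first held no AAV-hGRB array, it was -0.52, -1.57 and -1.05. Without PBS replicate 1 it was -1.54, and with another background correction, normexp with an offset of 50, it was -1.59. The rule that chose Hamp2 fixed the sign of the slide values and of the value without PBS replicate 1. A single tested probe, within chr7:27862281-27862340 of the array design's build mm7, read Hamp2, and hybridisation of Hamp RNA to it was not tested.

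Hamp itself, named here as the paralog of Hamp2 after its values were seen, did not separate. Its level was 7.59, 8.14, 9.22 and 8.70 with PBS, 7.85, 8.17, 9.27 and 8.16 with AAV-GFP, and 7.99, 7.33, 7.14 and 7.91 with AAV-hGRB. The 3 groups overlapped, and the log2 difference was -0.44 (95% interval -1.24 to 0.36), near 0 for AAV-GFP at -0.05 and -0.82 for AAV-hGRB. Of 21 tested genes of hepcidin and iron control, a list added after Hamp2 was seen, 15 were lower and 6 higher with a median of -0.25, beside a median of -0.02 over all probes. The leading members after Hamp2 were Smad6, an inhibitor of BMP signalling, at -0.25, Tfr2, a hepatocyte iron sensor, at -0.27, and Ftl1, the light chain of the iron store ferritin, at -0.47. None passed the test, and AAV-GFP replicate 3 had the lowest Ftl1 level, 6.17 against 7.32 to 8.55 on the other 11 arrays. Without that array Ftl1 differed by -0.24 and the list's median was -0.15.

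**Figure D2:**
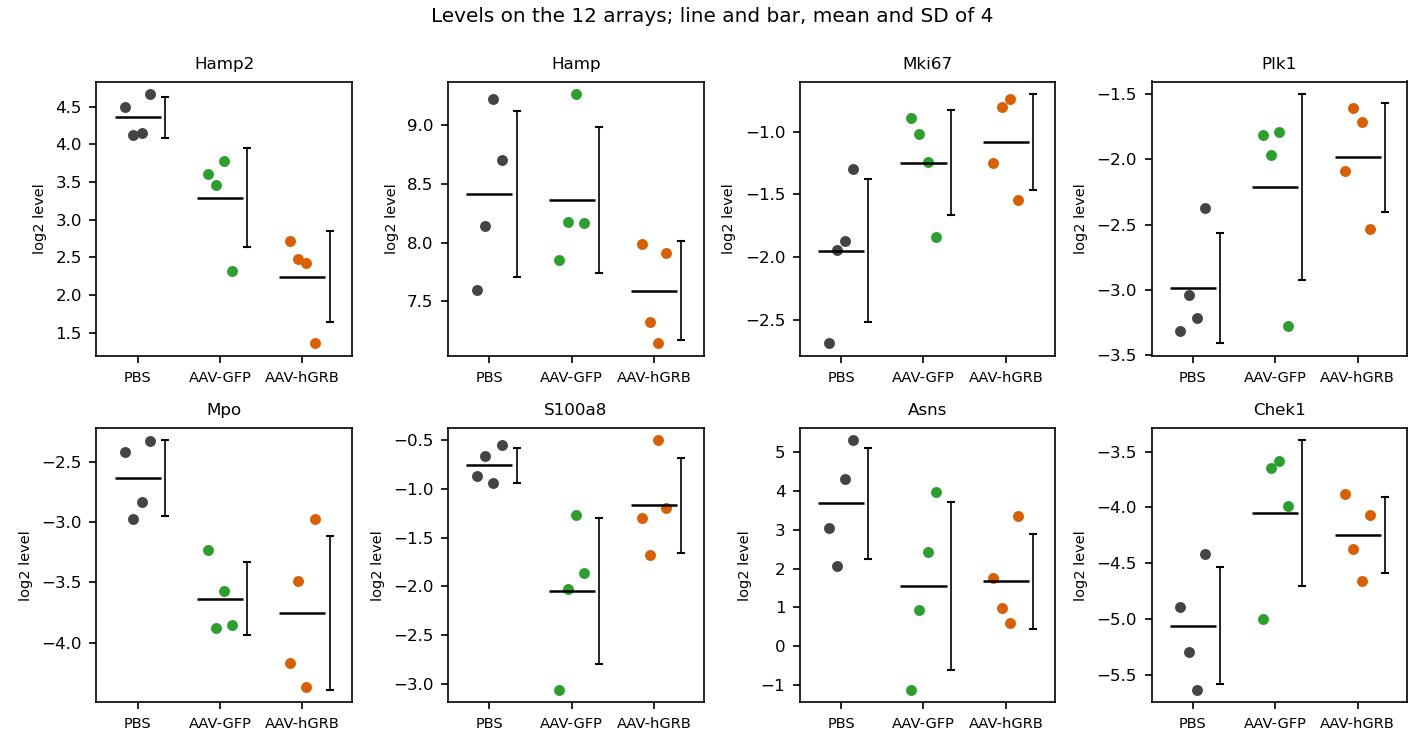
Log2 level of 8 genes on each of the 12 arrays, by group, with the mean as a line and the SD of 4 arrays as a bar; each panel has its own axis, which does not start at 0. The Hamp2 points of both vectors lie below those of PBS, while in the other 7 panels the vector and PBS arrays overlap.

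Among the other genes lower with both vectors, Tlcd2 had a well measured signal. Its level was 3.60, 3.60, 3.49 and 3.49 with PBS, 3.36, 3.41, 2.89 and 3.16 with AAV-GFP, and 2.75, 2.74, 3.23 and 3.20 with AAV-hGRB, a difference of -0.45 ± 0.17 (SE). Plce1, a phospholipase C that links Ras to phosphoinositide signalling, differed by -0.57 ± 0.16 (SE), yet its other probes gave 0.01 and -0.23. Stac, an adaptor protein with an SH3 domain, stood at -0.42 on PBS replicate 1 and at -1.99, -1.79 and -1.80 on the other PBS arrays, against -3.31 to -2.30 on all vector arrays. PBS replicate 1 was thus the highest array. The Stac difference was -1.21, and -0.85 without PBS replicate 1. The rule that chose Stac fixed that the groups separate without that array too. Nudt6, a nudix hydrolase, differed by -1.01 and Zbtb8a, a zinc finger protein, by -0.75. In both, AAV-GFP replicate 3 was the lowest array, at -3.75 and -4.47.

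The other genes on the lower side had values that depended on the background correction. Under normexp, the differences of Olfr1230, Ephx3, Ppm1j and Zfp169 were -0.12, -0.13, -0.04 and -0.05, and those of Zbtb8a, Nudt6 and Stac were -0.15, -0.47 and -0.55. Ephx3, an epoxide hydrolase, differed by -1.29 and Olfr1230, an odorant receptor gene, by -1.35, and each was well above background on 4 of 4 PBS arrays and on 1 of 8 vector arrays. Both needed the PBS arrays to enter the test. Clcn6, a chloride and proton exchanger of late endosomes, differed by -0.71, with 3 of 8 vector arrays above background, and also needed the PBS arrays to enter. Under the normexp background correction its difference was 0.01, a change of sign. Olfr796, another odorant receptor gene, differed by -1.07 and Ppm1j, a protein phosphatase, by -0.53, each above background on 7 of 8 vector arrays. Zfp169, a zinc finger protein, differed by -0.42, and its other probe gave 0.29.

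Among the genes higher with both vectors, Trafd1 and Trim26 are regulators of innate signalling. Trafd1, a feedback regulator of innate immune signalling, was at 2.71, 2.92, 3.22 and 3.25 with PBS, 3.51, 3.31, 3.56 and 3.31 with AAV-GFP, and 3.60, 4.03, 3.83 and 3.39 with AAV-hGRB. The groups did not overlap and the difference was 0.54 ± 0.18 (SE; 95% interval 0.15 to 0.93), although its other probe gave -0.12. Trim26, a ubiquitin ligase, differed by 0.36, and its other probes gave 0.22 and 0.44. Pkn2, a protein kinase, differed by 0.26, and its other 3 probes gave 0.36, 0.14 and 0.27. Trim26 and Pkn2 were thus higher on every probe that read them, and the sizes stayed small.

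Nrf1, nuclear respiratory factor 1, a regulator of mitochondrial genes, differed by 0.54, but its other probe gave -0.08. Camk2g, a calcium and calmodulin dependent kinase, differed by 0.43, Ythdf1, a reader of methylated adenosine in mRNA, by 0.26 with another probe at -0.11, and Fubp3, a nucleic acid binding protein, by 0.19. Hsf2, a heat shock transcription factor, differed by 0.92, and its other probe gave 0.00. None of the other tested probes of the named genes separated the groups.

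A few of the largest differences in this direction rested on dim signal or on 1 array. Slc35f1, a member of a solute carrier family, was well above background on 0 of 4 PBS and 5 of 8 vector arrays. It entered the test only through the vector arrays. With dim PBS levels raised to the lowest signal well above background on each array, it stood 1.61-fold higher with vectors. That is no lower bound, as the vector mean includes arrays not well above background. The measured difference of that probe was 2.31, while its other probe gave -0.26 and normexp gave 0.50. Lpar2, a lysophosphatidic acid receptor, was above background on the same numbers of arrays and entered the test in the same way. With its PBS levels so raised, Lpar2 stood 1.05-fold higher. S100g, a calcium-binding protein, reached 1.85 on AAV-GFP replicate 2 and lay between -3.51 and -1.99 on the other 7 vector arrays. Casp8ap2, a caspase 8 associated protein, stood at -4.05 on PBS replicate 1, between -1.17 and -1.05 on the other 3 PBS arrays and between -0.96 and -0.74 on the vector arrays. Its difference of 0.97 was 0.24 without PBS replicate 1.

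**Figure D3:**
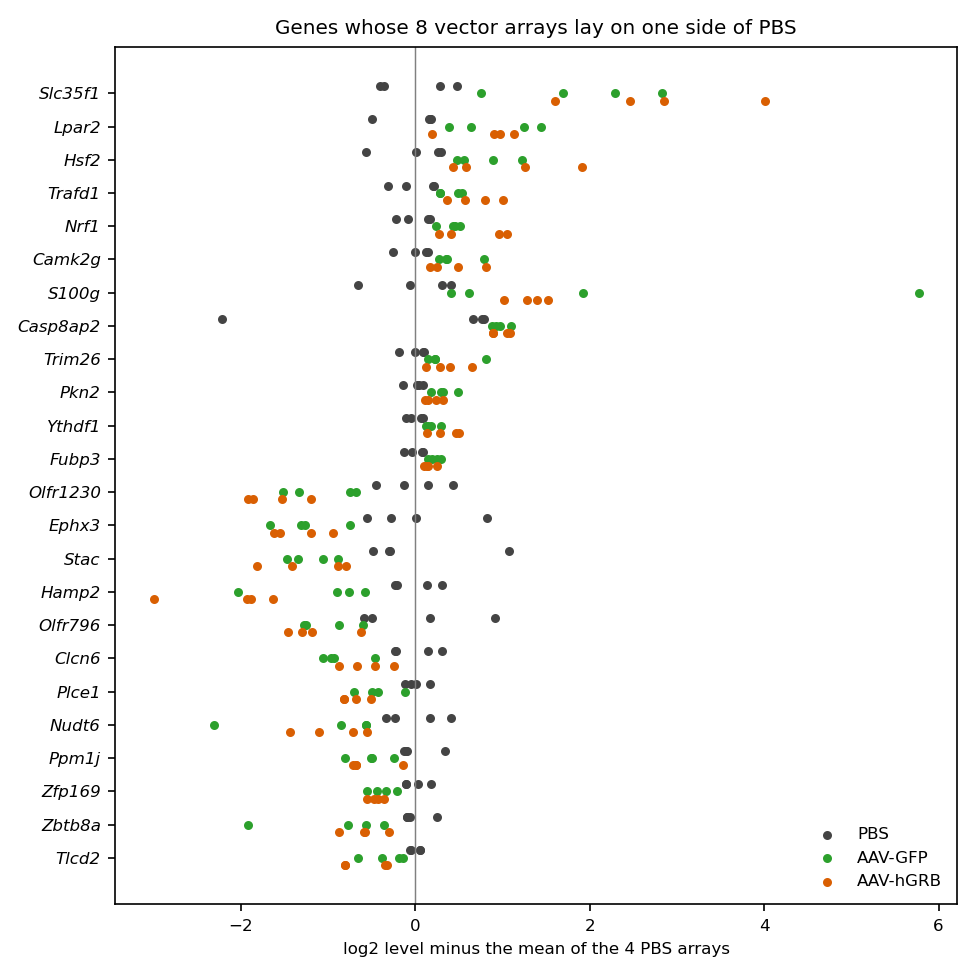
Log2 level minus the mean of the 4 PBS arrays for the 12 named genes above and the 12 below PBS, one point per array, coloured by group. By the rule that chose them, vector and PBS points do not overlap; S100g on AAV-GFP replicate 2 and Casp8ap2 on PBS replicate 1 lie far from the others of their group.

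Nr3c1, the knocked-out gene, is the check of the labels shared by all groups. Its brightest probe differed by 0.01 (95% interval -0.32 to 0.33) between vector and PBS arrays, and the other 3 probes gave 0.14, -0.07 and 0.32. No probe is stated to lie in the deleted part, so these values do not test the knockout.

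In the gene lists, 0 members of 33 lists passed the test. Read by its brightest tested probe, a gene stood above PBS in 46.1% of the 18882 genes tested, and their median was -0.03. The lists are described by how many members stood on either side and by their median.

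Of 21 tested cell cycle genes, 18 stood above PBS with a median of 0.38, and the medians were 0.47 for AAV-GFP and 0.28 for AAV-hGRB. Without PBS replicate 1, 14 of 21 stood above with a median of 0.33, and within the 3 shared slides the medians were 0.33, 0.08 and 0.70. With array weights the median was 0.24. The list mean was -1.42 to -0.72 on vector arrays and -1.89 to -1.08 on PBS arrays, so the groups overlapped. The windows before the starts of Mki67 and Cdc20, 2 of the leading members by p, are shown because CCAAT boxes and the element TTTGAA, known as the CHR, are the recurring elements of late cell cycle promoters. They are 250 bases from RefSeq on GRCm38.p6, at chr7:135716380-135716629 and chr4:118437344-118437593, both on the minus strand, with matches on either strand in capitals.
Mki67: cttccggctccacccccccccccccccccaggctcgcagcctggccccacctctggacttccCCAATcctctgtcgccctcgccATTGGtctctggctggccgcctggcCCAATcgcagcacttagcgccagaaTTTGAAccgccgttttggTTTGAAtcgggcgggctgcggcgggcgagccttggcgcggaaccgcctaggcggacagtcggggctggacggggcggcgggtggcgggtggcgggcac
Cdc20: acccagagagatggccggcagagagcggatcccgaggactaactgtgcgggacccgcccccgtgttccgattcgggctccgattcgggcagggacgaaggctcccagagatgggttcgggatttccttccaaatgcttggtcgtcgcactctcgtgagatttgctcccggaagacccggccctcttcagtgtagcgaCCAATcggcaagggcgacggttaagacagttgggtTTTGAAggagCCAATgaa
Mki67 held 3 CCAAT and 2 TTTGAA matches, and Cdc20 held 2 and 1. In windows not shown, Plk1, another leading member, held 1 CCAAT and 0 TTTGAA, and Ccnb2, which is not described below, held 3 and 1. Both windows shown thus held both elements, while that of Plk1 did not. The window of Bub1b, also a leading member, is not given separately. Of the 18 list members found in the table, 14 held CCAAT and 6 TTTGAA, beside 33.8% and 16% of all windows. The list was made of cell cycle genes, whose promoters are known for these elements, so the counts say nothing of vector against PBS. Here too, a match describes letters only.

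Mki67, a nuclear protein of dividing cells, was at -2.69, -1.94, -1.87 and -1.30 with PBS, -0.89, -1.02, -1.24 and -1.84 with AAV-GFP, and -1.25, -0.80, -0.73 and -1.55 with AAV-hGRB. Only PBS replicate 4 reached the range of the vector arrays. The difference was 0.79 ± 0.27 (SE; 95% interval 0.21 to 1.36). A second Mki67 probe differed by 0.87 with no overlap between the groups, and within slides it gave 0.71, 1.26 and 1.24. It is one of the 49 separating probes and was picked out after its values were seen. That separation fixes the sign of its slide values, which are therefore no check. This probe was dimmer than the first, with a mean level of -3.48 on vector arrays and -4.35 on PBS arrays.

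Plk1, a mitotic kinase, was at -3.32, -3.04, -3.21 and -2.37 with PBS, -1.82, -1.97, -1.79 and -3.27 with AAV-GFP, and -2.09, -1.61, -1.71 and -2.53 with AAV-hGRB, a difference of 0.89. PBS replicate 4 was the highest control and AAV-GFP replicate 4 the lowest vector array, and these overlapped. Cdc20, an activator of the anaphase-promoting complex, differed by 0.86 ± 0.33 (SE). Bub1b, a spindle checkpoint kinase, was well above background on 0 of 4 PBS and 5 of 8 vector arrays. It entered the test only through the vector arrays. With dim PBS levels raised to the lowest signal well above background, Bub1b stood 1.18-fold higher. None of these genes differed between the vectors at an adjusted p of 0.05. In bulk liver, a change in the number of cells of a type and a change in RNA per cell cannot be told apart.

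Of 27 tested genes of DNA damage and p53 targets, 20 stood above PBS with a median of 0.34, which was 0.10 for AAV-GFP and 0.46 for AAV-hGRB. Within the shared slides the medians were -0.10, -0.13 and 0.43, without PBS replicate 1 the median was 0.21, and with slide as a block 0.12. With that block the change rests on the shared slides alone. PBS replicate 1, AAV-GFP replicate 4 and AAV-hGRB replicates 2 and 4 then do not enter it. Chek1, a checkpoint kinase, was above background on 0 of 4 PBS and 5 of 8 vector arrays. It entered the test only through the vector arrays. With dim PBS levels raised to the lowest signal well above background, Chek1 stood 1.26-fold higher. Gadd45b, a stress-induced signalling protein, differed by 0.80 and Sesn2, a stress-induced inhibitor of mTORC1, by 0.78. Another Gadd45b probe gave 0.72 and another Sesn2 probe 0.27. Phlda3, a p53-induced inhibitor of AKT, differed by 1.10, at 0.36 for AAV-GFP and 1.85 for AAV-hGRB. With slide as a block it differed by 0.66, and within the shared slides by -0.30, 0.57 and 1.47. The vectors were 1.49 apart in Phlda3, a difference that missed the adjusted threshold, and near equal in Gadd45b (0.79 and 0.81).

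All 10 tested neutrophil markers stood below PBS, with a median of -0.61, -0.89 for AAV-GFP and -0.41 for AAV-hGRB. The count was 10 of 10 without PBS replicate 1 and without AAV-GFP replicate 3, and within the shared slides the medians were -1.45, -0.92 and -0.16. Under the normexp background correction, however, the median was -0.08. The list mean was -3.22 to -1.84 on vector arrays and -2.09 to -1.75 on PBS arrays, with AAV-GFP replicate 3 alone inside the PBS range.

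Mpo, the peroxidase of neutrophil granules, was at -2.42, -2.98, -2.83 and -2.33 with PBS, -3.23, -3.88, -3.57 and -3.86 with AAV-GFP, and -4.17, -3.49, -4.37 and -2.98 with AAV-hGRB. All AAV-GFP arrays lay below PBS, and AAV-hGRB replicate 4 touched the lowest control. The difference was -1.05 ± 0.26 (SE; 95% interval -1.61 to -0.50), and -0.24 under normexp. S100a8, a subunit of calprotectin, was at -0.86, -0.66, -0.94 and -0.55 with PBS, -3.07, -2.02, -1.26 and -1.86 with AAV-GFP, and -1.30, -1.68, -0.50 and -1.20 with AAV-hGRB. Its difference was -1.30 for AAV-GFP and -0.41 for AAV-hGRB, and S100a9, the other subunit, followed at -1.26 and -0.40. Lcn2, an iron-chelate binding protein made by neutrophils and hepatocytes, differed by -0.99 with a 95% interval of -2.24 to 0.26. Of the defining markers, Ngp and Camp were each well above background on 2 of 12 arrays.

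The interferon-induced genes were the list in which the vectors' medians lay farthest apart. All 33 tested members stood above PBS with a median of 0.78, but that median was 0.09 for AAV-GFP and 1.58 for AAV-hGRB. The list mean was 0.89 to 1.56 with AAV-GFP, 0.73 to 1.32 with PBS and 2.04 to 3.25 with AAV-hGRB. AAV-GFP thus overlapped PBS, and AAV-hGRB lay above both. Within the shared slides the medians of the pooled comparison were -0.37, 0.41 and 1.13, the first from a slide with no AAV-hGRB array. The pooled median was 0.43 with slide as a block and 0.48 under normexp. Isg15, a ubiquitin-like interferon product, was at 1.57, 1.95, 2.09 and 2.52 with PBS, 1.70, 2.42, 2.77 and 2.26 with AAV-GFP, and 3.54, 5.42, 4.81 and 3.58 with AAV-hGRB. The vectors differed by 2.06 in Isg15 and by 1.39 in Ddx58, the cytosolic RNA sensor RIG-I, without passing the adjusted threshold. Of 13 tested genes of endosomal and cytosolic DNA sensing, 8 stood above PBS with a median of 0.12, but the medians were 0.00 for AAV-GFP and 0.02 for AAV-hGRB. Without PBS replicate 1, 7 of 13 stood above with a median of 0.00, and with slide as a block the median was -0.14. Tlr7, an endosomal RNA receptor, differed by 0.67 and, with slide as a block, by 0.40, Ticam1, an adaptor of Toll-like receptors, by -0.38, and Cgas, the cytosolic DNA sensor, by 0.54 with a 95% interval of -0.60 to 1.69, and by 0.17 without AAV-GFP replicate 3.

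Of 16 tested genes of AAV entry and trafficking, 11 stood below PBS with a median of -0.11, against 9 and -0.03 without AAV-GFP replicate 3. Met, the hepatocyte growth factor receptor and a reported AAV co-receptor, differed by -0.55. Fgfr1, another reported co-receptor, differed by -0.55 with a 95% interval of -1.24 to 0.15, and by -0.26 without PBS replicate 1. Another Fgfr1 probe gave -0.21. The list mean was 1.65 to 1.90 on vector arrays and 1.78 to 1.86 on PBS arrays, so the groups overlapped.

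Further lists depended on PBS replicate 1. Of 17 Kupffer cell and macrophage markers, 16 stood above PBS with a median of 0.30, but 13 did so without PBS replicate 1, with a median of 0.04. With slide as a block, which also leaves PBS replicate 1 out of the change, the median was -0.11. Clec4f, a Kupffer cell lectin, was at 2.79 on PBS replicate 1, 4.48 to 4.56 on the other PBS arrays and 4.28 to 5.19 on vector arrays. All 14 tested female-biased liver genes stood below PBS with a median of -0.48, against 10 of 14 and -0.15 without PBS replicate 1, and -0.02 with slide as a block. All 8 adipocyte and muscle markers stood below PBS with a median of -0.46, against 4 of 8 and -0.12 without it. Of the defining muscle markers, 0 of 3 were well above background on all 12 arrays. The male-biased liver genes had 14 of 18 above PBS with a median of 0.12, against 9 of 18 and 0.02 without it. For T and NK cell markers the median was 0.10 and -0.09 without it, and for MHC class II -0.04 and -0.35. Of 27 complement and coagulation genes, 12 stood above PBS, and 4 without it. The erythroid genes, all 6 below PBS with a median of -0.36, kept that count without PBS replicate 1, with a median of -0.34, and the median was -0.21 without PBS replicate 4.

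**Figure D4:**
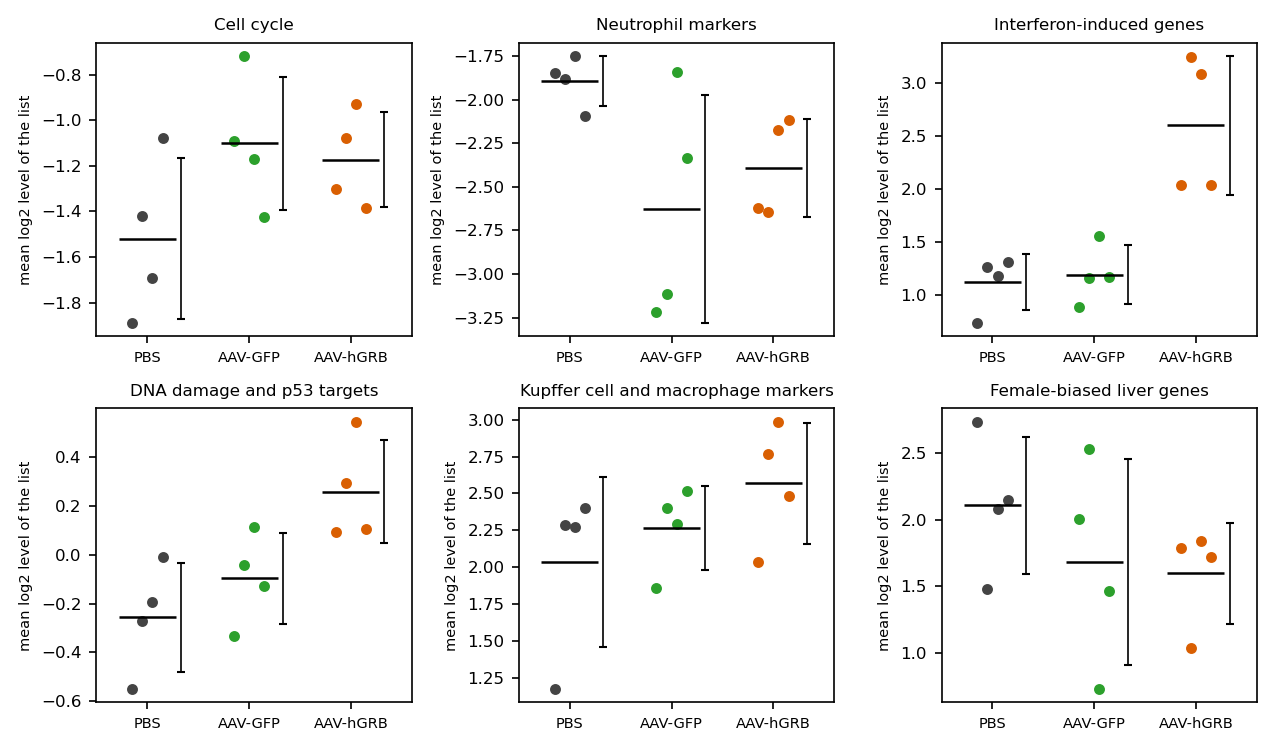
Mean log2 level of 6 gene lists on each of the 12 arrays, by group, with the mean as a line and the SD of 4 arrays as a bar; axes do not start at 0. The interferon-induced genes are high on the AAV-hGRB arrays and overlap between AAV-GFP and PBS, and PBS replicate 1 is the lowest PBS point for Kupffer cell markers and the highest for female-biased genes.

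Metabolic lists differed in how far they lay from 0. Of 26 genes of fatty acid oxidation and PPARA targets, 20 stood below PBS with a median of -0.17. Cholesterol synthesis had 17 of 22 below with a median of -0.17, and glycolysis and lipogenesis 14 of 20 with -0.09. Within the shared slides the medians of these lists took both signs. Of 16 bile acid genes, 8 stood below PBS and the median was 0.04. The 19 hepatocyte core genes had a median of 0.01, with 10 above PBS and 9 below, and list means of 5.92 to 6.20 with vectors and 6.01 to 6.15 with PBS. Of 24 genes of gluconeogenesis and amino acid breakdown, 19 stood below PBS with a median of -0.16, which was -0.25 without PBS replicate 1 and -0.02 without PBS replicate 4. Among them were Asl, argininosuccinate lyase of the urea cycle, at -0.60 and the alanine transaminases Gpt2 and Gpt, both at -0.49. Asns, asparagine synthetase, a target of ATF4 in the list of ER stress and folding, was at 3.04, 2.07, 4.32 and 5.31 with PBS, -1.13, 0.93, 2.44 and 3.97 with AAV-GFP, and 1.76, 0.99, 0.59 and 3.35 with AAV-hGRB. The groups overlapped and the interval was wide, -3.90 to -0.25 around -2.07, while the median of that list of 24 was -0.05. Within the shared slides Asns differed by -3.20, -3.96 and -2.81, and with array weights by -1.22. Dnajb9, an ER chaperone, differed by -0.92, and its other probes gave -0.22 and -0.92.

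**Figure D5:**
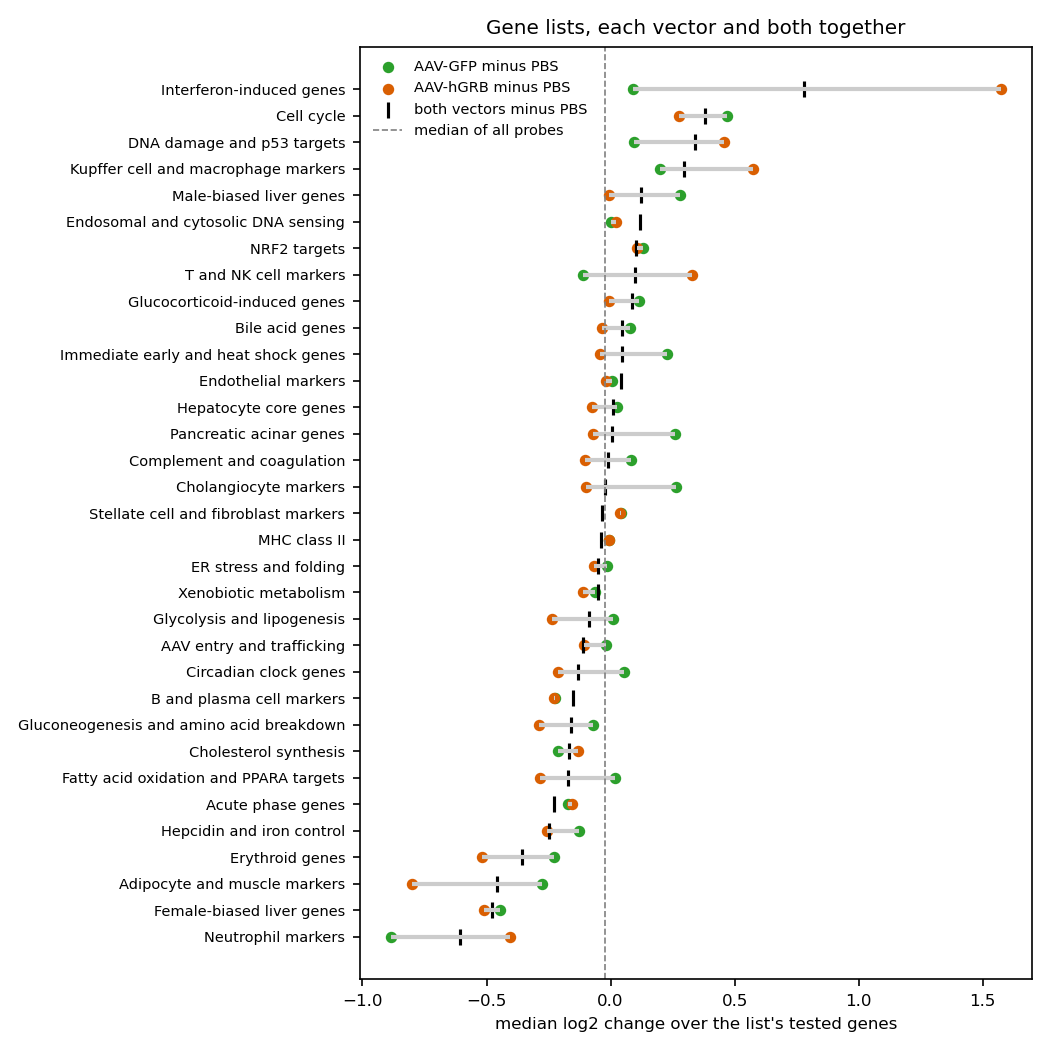
Median log2 change from PBS over the tested genes of each of 33 lists, for AAV-GFP, AAV-hGRB and both vectors together, with a dashed line at the median of all probes, -0.02. Both vectors lie on the same side of that line for many lists, among them the cell cycle, neutrophil, Kupffer cell, erythroid and interferon-induced lists. Both comparisons share the PBS arrays, so a shared side says nothing of a common response. The vectors are farthest apart for the interferon-induced genes.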

How the data were processed

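Liver RNA of 12 samples was hybridised to 1-colour Agilent arrays. Per the file headers, the deposited spot intensity was background-subtracted and detrended by the authors with Feature Extraction 9.5.3.1 (9.5 in the submitters' processing notes). The deposited series matrix equals it within a relative 1e-06, on a linear scale with no centring, and its column medians were 51.7, 43.6, 28.4 and 43.1 (AAV-GFP), 43.9, 50.9, 54.4 and 57.1 (AAV-hGRB) and 67.1, 58.9, 38.9 and 47.9 (PBS). Its direction is that of the intensity.

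Log2 values of 43379 non-control spots per array were averaged per probe and the array's 75th percentile was subtracted. Probes well above background on at least 4 arrays were tested with limma 3.58.1 (R 4.3.3) with no further term, in two-sided tests at a threshold of 0.05 after Benjamini-Hochberg adjustment over these probes. A model with 2 groups gave the pooled change and one with 3 groups each vector's own. The brightest tested probe stands for a gene in lists and named genes. Of 41174 probes, 22951 were named through RefSeq (GRCm38.p6) by their systematic name, 131 by another accession, and 18092 kept the design's name. Scripts were tested on simulated data.

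Named genes would be the 12 with the largest change in each direction past the threshold. As fewer passed, the places were filled by lowest unadjusted p among genes with no overlap between groups, leaving out predicted genes and clones, plus Nr3c1 and up to 4 members of each described list. The members and lists were chosen with earlier results of these data known. The number of arrays limits the precision. Alternatives covered scaling, background, filters, blocks, weights and leaving out each array.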

Additional observations from a re-analysis of the deposited data

Results flagged for a closer look

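In 240 checks of groups of 4 or 8 arrays for a single array far from the others, 24 were found. Chance flags about 1 in 20 groups. PBS replicate 1 was the distant PBS array for Lpar2 at -5.89, Casp8ap2 at -4.05 and Stac at -0.42, and in list means for T and NK cell markers at -2.42, MHC class II at -1.08 and Kupffer cell and macrophage markers at 1.17. AAV-GFP replicate 3 was distant among the AAV-GFP arrays for Trim26 at 3.85, Nudt6 at -3.75 and, as a list mean, PPARA targets and fatty acid oxidation at 4.11, among the vector arrays for Zbtb8a at -4.47, and in both groupings for its 75th percentile of signal at 7.71. AAV-GFP replicate 2 was distant for S100g among the vector arrays at 1.85 and for cholangiocyte markers in both groupings at 0.15.

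The other distant arrays were spread. For Ppm1j they were AAV-hGRB replicate 4 at -3.47 and PBS replicate 2 at -2.99, and for Zbtb8a PBS replicate 4 at -2.29. In list means they were AAV-hGRB replicate 3 for T and NK cell markers among the vector arrays at -1.26, AAV-GFP replicate 1 for stellate cell and fibroblast markers at 0.72, AAV-hGRB replicate 1 for endothelial markers at 1.15 and PBS replicate 2 for glycolysis and lipogenesis at 4.09. AAV-hGRB replicate 2 was distant for female-biased liver genes at 1.04 and for NRF2 targets at 3.80.

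For complement and coagulation genes, all 4 AAV-GFP list means lay above the PBS mean of 6.56 and all 4 AAV-hGRB list means below it. AAV-hGRB minus AAV-GFP was -0.16, a difference that was not tested, and the PBS arrays themselves ranged from 6.27 to 6.76.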

How the results depend on the processing

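The pooled comparison called 0 probes under all 27 alternatives, with the lowest adjusted p between 0.1 (array weights) and 1. AAV-GFP against PBS and the difference between the vectors called 0 in all 25 alternatives run for them. AAV-hGRB against PBS called 0 in 24 of 25 and 67 with array weights. The cause was not tested. With the replicate number as a block, 0 probes were called in the pooled comparison (lowest adjusted p 0.46), with 918 below 0.05 before adjustment. Same-numbered arrays correlated between -0.43 and 0.59 after centring by group, and 4 of 12 correlated best with their own number. Such correlations cannot exclude a pairing, and the labels state none. With slide as a fixed block, 306 probes had an unadjusted p under 0.05 against 865, with normexp 185, with quantile normalization 1165, without PBS replicate 4 1401 and with array weights 3052.

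The 49 separating probes became 13 under normexp, 65 under quantile normalization and 55 to 279 with 1 array left out, which removes comparisons that must hold. The signs of the 24 separating genes were kept in 714 of 715 values over the alternatives and slides. The exception was Clcn6 under normexp. The rule that chose these genes fixes the sign when arrays are left out or weighted, for each vector alone and within slides. Those values are therefore no check of the signs. Slides and groups overlap only on 3 slides, and signals near background limit Slc35f1, Lpar2, Hsf2, Ephx3 and Olfr1230.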
